A study of Mus musculus with 24 samples.

Results

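Enzymes that reshape fatty acids after their synthesis were followed by gene symbol through inguinal white adipose tissue: the desaturases Scd1, Scd2, Fads1 and Fads2 and the elongases Elovl5 and Elovl6. They were 6 of the 17541 genes in the deposited count table, and each was found there under its own Ensembl identifier. A test across all genes could be made for 5 of them, because Fads2 was removed by the filter on low counts.

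Desaturases of the endoplasmic reticulum place a double bond into a fatty acid that is bound to coenzyme A, taking electrons that reach them through cytochrome b5 and its reductases. Stearoyl-CoA desaturases such as Scd1 and Scd2 turn saturated stearate and palmitate into the monounsaturated oleate and palmitoleate, which are found in stored triglyceride. Fads1 and Fads2 act on polyunsaturated acids from the diet, and elongases add carbons to the chain: Elovl6 lengthens palmitate towards stearate, whereas Elovl5 works mainly on polyunsaturated acids. In the mouse many of these genes are known as targets of the lipid-sensing transcription factors SREBP-1c, LXR and ChREBP.

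The tissue is a fat depot under the skin and came from wild-type C57BL/6J mice. The series title states that the mice were fed a high-fat diet, which all groups share. The groups were Aged BAM15 (5 mice of 92 weeks treated with BAM15), Aged CTRL (6 mice of 92 weeks), Young BAM15 (6 mice of 16 weeks treated with BAM15) and Young CTRL (7 mice of 16 weeks), the last of which the series names as its baseline. BAM15 is a mitochondrial uncoupler, and neither its dose nor the length of treatment is in the labels. Each of the 24 libraries holds reads from the 3′ end of transcripts of 1 mouse. Values are given as CPM, in which a gene's counts are scaled to a common library size. Since whole tissue was used, fewer cells of a type and less RNA per cell cannot be told apart.

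In the mouse build GRCm38, 4 of the 6 genes lie on chromosome 19. Scd1 (chr19:44394455-44407879, minus strand) and Scd2 (chr19:44293674-44306864, plus strand) lie in a cluster of stearoyl-CoA desaturase genes, with 87590 bases between them in which Scd4 also lies. Fads1 (chr19:10182888-10196877, plus strand) and Fads2 (chr19:10062765-10101746, minus strand) are 81141 bases apart. Elovl5 lies at chr9:77917364-77984519 and Elovl6 at chr3:129532355-129638495, both on the plus strand. Scd1 and Scd2 are close copies, with 89.8% identity over their coding sequence, so the ends of their coding sequences are shown to let a reader see how far the copies differ. Capitals mark the 10 of 60 bases at which they differ, and both run 5′ to 3′ on the coding strand.
Scd1: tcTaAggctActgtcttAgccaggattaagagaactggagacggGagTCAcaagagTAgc
Scd2: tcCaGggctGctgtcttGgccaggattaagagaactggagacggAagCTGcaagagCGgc
The library method reads the transcript's 3′ end, beyond this stretch. Over the last 500 bases of the transcripts the identity of Scd1 and Scd2 was 57%, with a longest shared run of 14 bases. Of the 451 windows of 50 bases in that stretch, 0 occurred in a transcript of any other gene, and this held for each of the 6 genes.

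The promoters of the pair of elongases are shown because, with the groups pooled, Elovl6 followed Scd2 (Pearson r of 0.742) and Elovl5 did not (0.242). Within groups the r of Scd2 and Elovl6 was 0.599 (permutation adjusted p = 0.149), which did not pass. Whether the promoters bear on this was not tested. Both are the 250 bases before the start in the RefSeq annotation of GRCm38.p6, on the plus strand, and capitals mark matches to the motifs searched. The Elovl5 promoter is chr9:77917115-77917364 and the Elovl6 promoter is chr3:129532136-129532385.
Elovl5: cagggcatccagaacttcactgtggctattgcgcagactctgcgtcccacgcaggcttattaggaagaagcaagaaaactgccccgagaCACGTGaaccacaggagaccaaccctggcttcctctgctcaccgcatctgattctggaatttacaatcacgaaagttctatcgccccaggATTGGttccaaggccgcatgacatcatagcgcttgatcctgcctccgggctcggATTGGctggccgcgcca
Elovl6: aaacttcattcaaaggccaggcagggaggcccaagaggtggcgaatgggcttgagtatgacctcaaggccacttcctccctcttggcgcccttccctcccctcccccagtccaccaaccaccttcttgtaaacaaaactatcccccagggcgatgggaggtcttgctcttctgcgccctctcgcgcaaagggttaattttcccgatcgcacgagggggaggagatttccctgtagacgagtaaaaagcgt
The motifs, read on both strands, were CCAAT (bound by NF-Y), CACGTG (an E-box) and TCACNCCAC (a sterol response element). They overlap nowhere in these windows. The Elovl5 window held CCAAT at 66 and at 12 bases before the start, both on the opposite strand, and CACGTG at 155 bases before the start. The Elovl6 and Fads2 windows held no match to these letters. Among 32851 promoter windows of the same length, 33.8% held CCAAT, 6.02% held CACGTG and 1.05% held TCACNCCAC.

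Several libraries stood apart from the rest before any group was compared. Library totals ran from 8.62 to 21.9 M counts. In 4 libraries, Aged BAM15 2, Aged BAM15 5, Aged CTRL 2 and Young CTRL 4, the mitochondrial ribosomal transcript mt-Rnr2 held 0.121 to 0.257% of counts, against 0.722 to 2.26% in the other 20. They were not poor in mitochondrial transcripts as a whole, which held 11.99 to 21.35% of their counts, against 4.816 to 9.275% in the other 20. The same 4 were also the deepest, with 18.4 to 21.9 M counts, against 8.62 to 17.9 M. In these 4 libraries Scd1 lay between 8815 and 16020 CPM, with a median of 11930 CPM. In the other 20, which are of all 4 groups, it lay between 3328 and 16590 CPM, with a median of 7760 CPM. Young CTRL 4 was at 9112 CPM, against a mean of 10330 CPM in the other 6 Young CTRL mice. Young CTRL 1 carried skin transcripts, with 840.0 CPM of the keratin gene Krt14, and Young CTRL 7 was the only other library above 10 CPM, at 90.0 CPM. All 8 adipocyte markers were above 1 CPM in the median library of each group, with a summed level between 37830 and 97450 CPM in Aged BAM15, 41810 and 77080 CPM in Aged CTRL, 24980 and 61080 CPM in Young BAM15, and 25850 and 83220 CPM in Young CTRL. For the 5 tested genes, the main results that rest on these libraries are given with and without them. Genes of the lists further below were fitted without them only in Aged CTRL and in Aged BAM15 against Young CTRL. Only some of those values are given. The part that other tissue or RNA quality plays in these results was not tested.

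**Figure D1:**
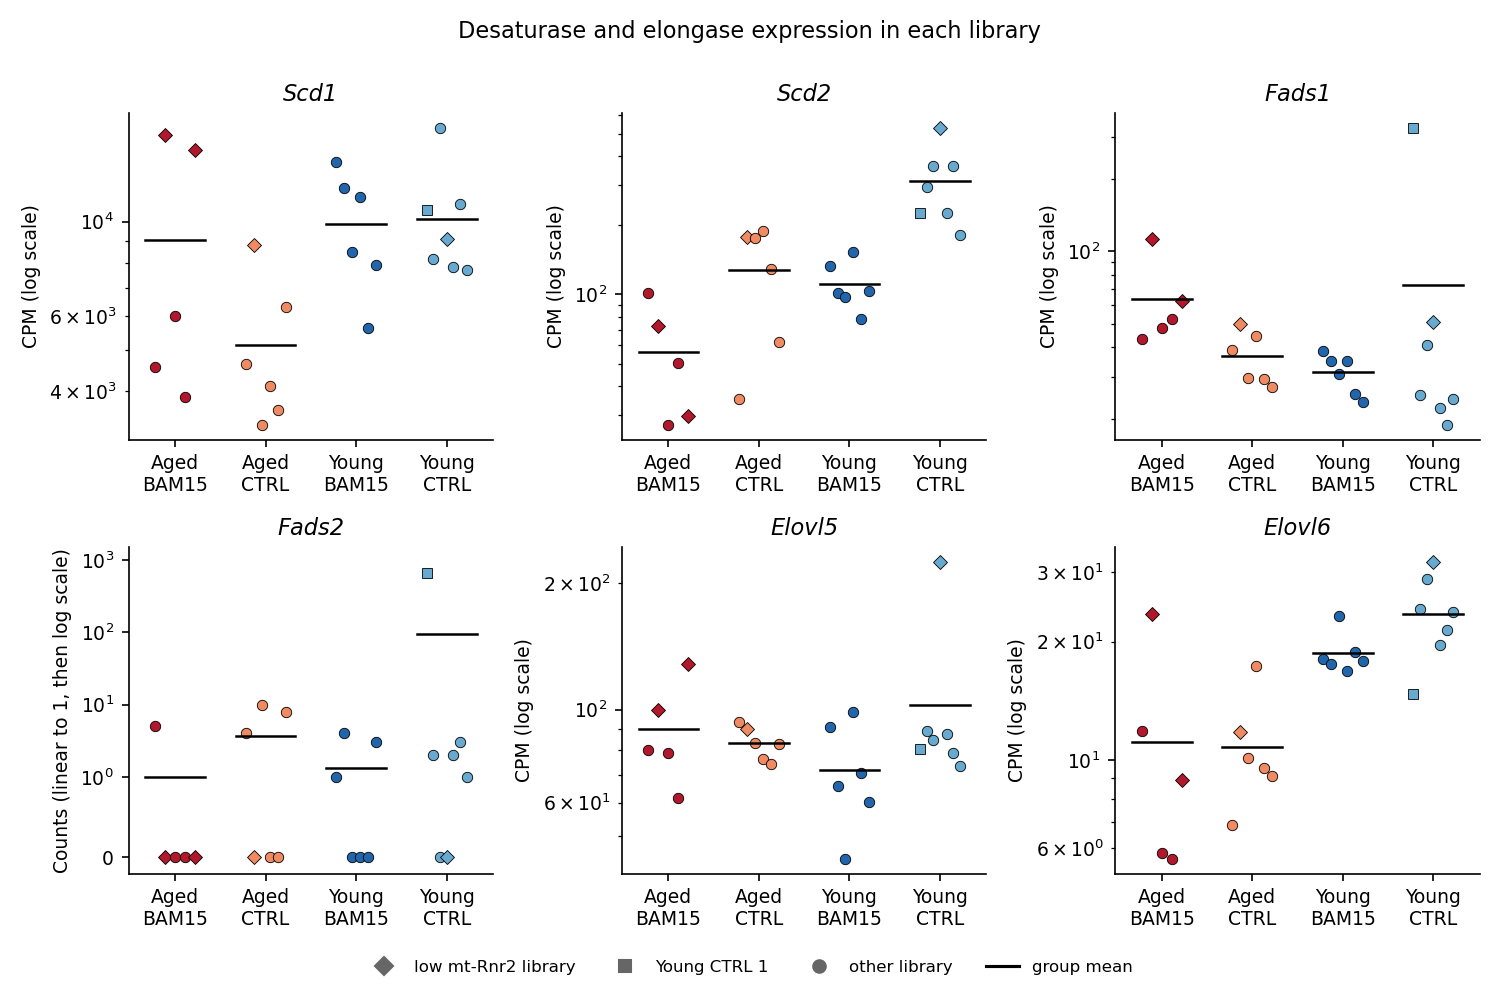
CPM of each gene (counts for Fads2) in every library on a log scale, 1 point per mouse, with the group mean as a line. Diamonds are the 4 libraries low in mt-Rnr2 and the square is Young CTRL 1. Scd2 is at most 101 CPM in Aged BAM15 and at least 182 CPM in Young CTRL, whereas Fads1 and Fads2 in Young CTRL are set apart by the square.

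Scd2 was the gene of the set that passed in the test used with all libraries. It was 5.55-fold lower in treated old mice than in untreated young mice, the groups that differ in both age and treatment. Elovl6 averaged less in both groups of old mice than in either group of young mice, and this passed the test only under some of the alternatives. Scd1, the main desaturase of fat, varied widely between mice and passed no comparison in the test used. The counts of genes passing were as follows, with an edgeR quasi-likelihood test on the 15939 genes that passed the filter and a Benjamini-Hochberg adjusted p under 0.05 as the threshold.

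With age in untreated mice (Aged CTRL against Young CTRL), 0 of the 5 tested genes passed the edgeR threshold, which 0.207% of all genes did. Scd1, Scd2 and Elovl6 had an unadjusted p under 0.05, which 8.43% of all genes had. No gene of the set had CPM ranges that kept apart between these groups (0.489% of all genes). All 5 had a negative log2 fold change, as had 53.5% of all genes, with a median of -0.99, against -0.04 over all genes. Fads1 was at 0.27 without Young CTRL 1, and Elovl5 at 0.016 without Young CTRL 4. In this comparison DESeq2 called Scd2 and Elovl6 of the 5, and 269 of all genes. By limma-voom with sample weights, Scd1 and Elovl6 were called, and 147 of all genes.

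In old mice (Aged BAM15 against Aged CTRL), 0 of the 5 passed, as did 0% of all genes. Scd1 and Scd2 had an unadjusted p under 0.05, as had 9.1% of all genes, and their fold changes had opposite signs. No gene of the set kept its ranges apart (0.709% of all genes). DESeq2 called 0 of the 5 and 142 of all genes, and limma-voom called Scd2 and 964 of all genes.

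In young mice (Young BAM15 against Young CTRL), 0 of the 5 passed, as did 0% of all genes. Scd2, Fads1 and Elovl5 had an unadjusted p under 0.05, which 13.1% of all genes had. Scd2 alone in the set had ranges that kept apart between these groups (1.19% of all genes). DESeq2 and limma-voom both called Scd2 and no other gene of the set, and called 224 and 679 of all genes.

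Between both treated groups (Aged BAM15 against Young BAM15), 0 of the 5 passed, against 0.427% of all genes. Scd2 and Elovl6 had an unadjusted p under 0.05, as had 16.4% of all genes, and Fads1 had ranges that kept apart (2.06% of all genes). DESeq2 called Fads1 alone in the set and 381 of all genes, whereas limma-voom called Scd1, Scd2 and Elovl6 and 300 of all genes.

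Between the groups at the ends of the design (Aged BAM15 against Young CTRL), Scd2 passed, 1 of 5 tested, against 1.29% of all genes. Scd2 and Elovl6 had an unadjusted p under 0.05, as had 16.8% of all genes, and Scd2 had ranges that kept apart (1.58% of all genes). DESeq2 called Scd2, Fads1 and Elovl6 and 826 of all genes, and limma-voom called Scd1, Scd2 and Elovl6 and 1633 of all genes. This comparison shares its libraries with those above and adds no new mice.

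The test of the difference between the effect of BAM15 in old and in young mice (the interaction) passed for 0 of 5 genes and for 0% of all genes. Fads1 alone had an unadjusted p under 0.05, which 5.08% of all genes had. DESeq2 and limma-voom also called 0 of the 5, and called 38 and 0 of all genes.

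**Figure D2:**
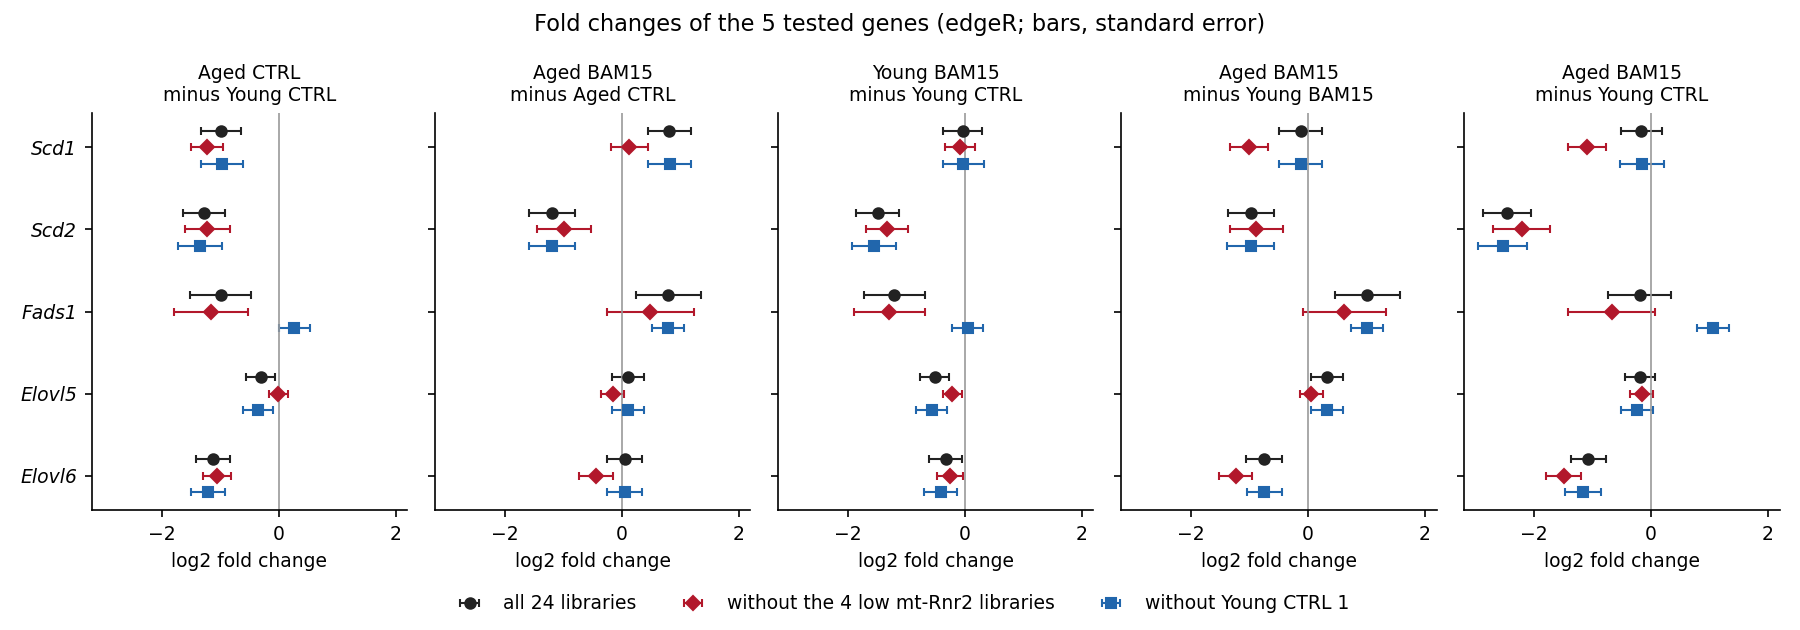
Log2 fold change of the 5 tested genes in each comparison (x axis), with the standard error as bars, from all 24 libraries (circles), without the 4 libraries low in mt-Rnr2 (diamonds) and without Young CTRL 1 (squares). Without the 4 libraries Scd1 in Aged BAM15 minus Young CTRL lies at -1.10 in place of -0.17, and without Young CTRL 1 Fads1 in the same panel lies at 1.06 in place of -0.20, while Scd2 stays between -2.54 and -2.21.

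Scd2 (ENSMUSG00000025203) encodes a stearoyl-CoA desaturase that is known as the main form of the mouse brain and is also made in fat. It measured 101, 72.6, 27.1, 50.1 and 29.6 CPM in the 5 Aged BAM15 mice. In Aged CTRL it ran from 35.2 to 189 CPM, with a median of 152.5 CPM. In Young BAM15 it ran from 78.2 to 153 CPM, with a median of 102.5 CPM. Young CTRL mice were the highest, with 182 to 528 CPM and a median of 294 CPM. Aged BAM15 and Young CTRL did not overlap, nor did Young BAM15 and Young CTRL, while the lowest Young CTRL mouse lay just under the highest Aged CTRL mouse. The means were 56.1 ± 31.1 CPM in Aged BAM15 (SD, n = 5), 128 ± 65.6 CPM in Aged CTRL (SD, n = 6), 111 ± 26.9 CPM in Young BAM15 (SD, n = 6), and 312 ± 118 CPM (SD, n = 7) in Young CTRL. By rank Aged BAM15 was lowest, then Young BAM15, Aged CTRL and Young CTRL, and the middle pair in this order differed by less than the spread between their mice.

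In Aged BAM15 against Young CTRL, Scd2 fell by 2.47 ± 0.41 on the log2 scale (SE, edgeR adjusted p = 0.00307) and stood 14th by p among all genes. All 5 Aged BAM15 mice were below the Young CTRL mean. Leaving out any 1 of the 24 libraries kept the log2 change between -2.80 and -2.30 and kept the call. Without the 4 libraries low in mt-Rnr2 it was -2.21 ± 0.49 (SE, adjusted p = 0.044), and without these and both libraries with Krt14 it was -2.40 ± 0.52 (SE, adjusted p = 0.0538), which did not pass.

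The single steps along age and treatment pointed the same way for Scd2 without passing the edgeR threshold. The log2 difference was -1.28 ± 0.36 (SE, adjusted p = 0.174) in Aged CTRL against Young CTRL, where 6 of 6 old mice were below the young mean. It was -1.19 ± 0.40 (SE, adjusted p = 0.359) in Aged BAM15 against Aged CTRL, where 5 of 5 mice were below the Aged CTRL mean. In Young BAM15 against Young CTRL it was -1.49 ± 0.37 (SE, adjusted p = 0.179), with 6 of 6 mice below the Young CTRL mean. This last difference ranked 34th by p among all genes and passed in DESeq2 (adjusted p = 0.00728) and in limma-voom (adjusted p = 0.0291). The effect of BAM15 differed between old and young mice by 0.30 ± 0.52 (SE, adjusted p = 0.934), so neither equality nor a difference was shown.

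Markers of other cells moved with some of these groups. The summed level of 6 B cell markers, all measured, ran from 1.78 to 877 CPM in Young BAM15, with a median of 293 CPM, against 1.10 to 256 CPM and a median of 2.68 CPM in Young CTRL. The covariate taken from these markers was their mean log2 CPM, not the sum. With it, the log2 difference of Scd2 was -1.21 ± 0.41 (SE, adjusted p = 0.522) in Young BAM15 against Young CTRL. In Aged BAM15 against Young CTRL it was -2.34 ± 0.41 (SE, adjusted p = 0.00487). Because Scd2 is known from myelinating cells, Schwann cell markers were summed as well (5 of 6 measured), and the sum overlapped between Aged BAM15 (42.6 to 219 CPM) and Young CTRL (15.4 to 203 CPM). With the mean log2 CPM of the adipocyte markers as a covariate, the Scd2 difference between these groups was -2.36 ± 0.39 (SE, adjusted p = 0.00285).

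Scd1 (ENSMUSG00000037071), the stearoyl-CoA desaturase of fat cells and a leading target of insulin and SREBP-1c, made up 0.322 to 1.49% of all counts of a library. It measured 4552, 16020, 5995, 3874 and 14740 CPM in the 5 Aged BAM15 mice, of which the second and the fifth are libraries low in mt-Rnr2. Aged CTRL ran from 3328 to 8815 CPM, with a median of 4369 CPM. Young BAM15 ran from 5616 to 13790 CPM, with a median of 9941 CPM, and Young CTRL from 7704 to 16590 CPM, with a median of 9112 CPM. The Aged BAM15 mice thus fell into 3 low and 2 high libraries, and every pair of groups overlapped. The means were 9035 ± 5858 CPM in Aged BAM15 (SD, n = 5), 5132 ± 2090 CPM in Aged CTRL (SD, n = 6), 9867 ± 3032 CPM in Young BAM15 (SD, n = 6), and 10150 ± 3131 CPM (SD, n = 7) in Young CTRL. Aged CTRL was thus lowest, and the other 3 groups differed by less than the spread between mice.

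With age in untreated mice the log2 difference of Scd1 was -0.98 ± 0.34 (SE, edgeR adjusted p = 0.321), and 6 of 6 Aged CTRL mice lay below the Young CTRL mean. Without the 4 libraries low in mt-Rnr2, the mean was 4395 ± 1180 CPM in 5 Aged CTRL mice, against 10330 ± 3393 CPM in 6 Young CTRL mice (SD). The difference was then -1.23 ± 0.27 (SE, adjusted p = 0.042), which passed. It was -1.32 ± 0.29 (SE, adjusted p = 0.0662) when both libraries with Krt14 were left out as well.

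The value of Scd1 in treated old mice moved with the libraries low in mt-Rnr2, which also had a higher summed level of adipocyte markers, with a median of 74130 CPM against 43790 CPM in the other 20. What these libraries share with the Scd1 level was not tested. Aged BAM15 against Aged CTRL gave 0.82 ± 0.37 (SE, adjusted p = 0.509), with 3 of 5 mice above the Aged CTRL mean, and 0.13 ± 0.32 (SE, adjusted p = 0.924) without the 4 libraries low in mt-Rnr2. Against Young CTRL the difference was -0.17 ± 0.36 (SE, adjusted p = 0.866) with all libraries and -1.10 ± 0.33 (SE, adjusted p = 0.121) without the 4. Against Young BAM15 it was -0.13 ± 0.37 (SE, adjusted p = 0.872) with all and -1.02 ± 0.33 (SE, adjusted p = 0.419) without the 4. In young mice BAM15 gave a difference of -0.04 ± 0.34 (SE, adjusted p = 0.978). The interaction was 0.86 ± 0.50 (SE, adjusted p = 0.899).

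The paralogs Scd1 and Scd2 differed in which groups were high. The ratio of Scd1 to Scd2 counts, taken within a library, ran from 45.0 to 498 in Aged BAM15, from 18.9 to 131 in Aged CTRL, from 71.8 to 118 in Young BAM15 and from 17.2 to 47.2 in Young CTRL. Because the reads come from different transcript ends, the size of this ratio says nothing on which enzyme is more abundant, but it can be set side by side between mice. The mean log2 ratio was 7.26 ± 1.37 in Aged BAM15 (SD, n = 5), 5.47 ± 1.2 in Aged CTRL (SD, n = 6), 6.45 ± 0.29 in Young BAM15 (SD, n = 6), against 5.06 ± 0.51 in Young CTRL (SD, n = 7). Every Young BAM15 mouse had a higher ratio than every Young CTRL mouse. The mean log2 ratio in Aged BAM15 was 6.52 ± 1.17 (SD, n = 3) when its libraries low in mt-Rnr2 were left out. These ratios are given as a description, since the difference in Scd2 enters them.

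**Figure D3:**
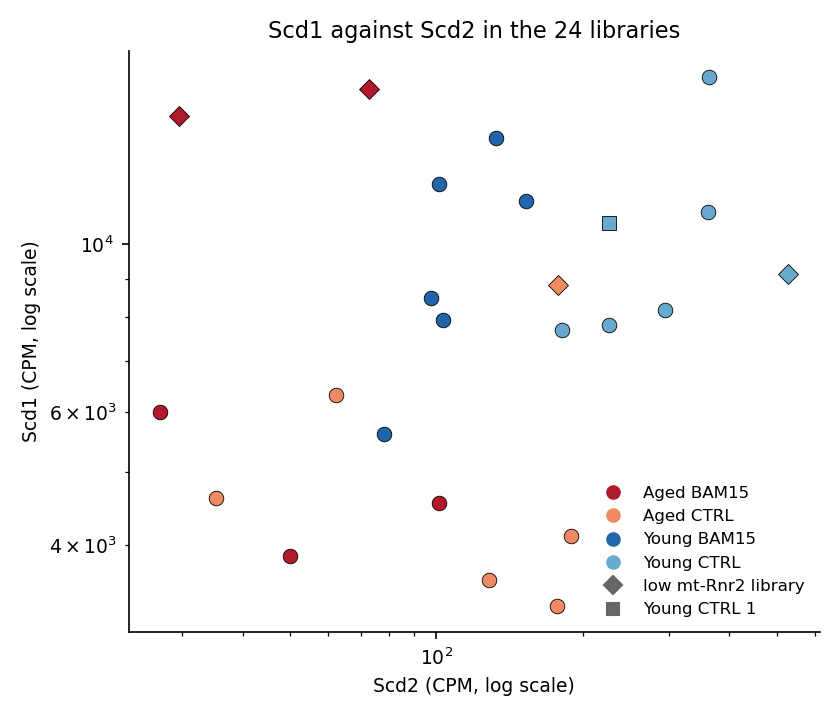
Scd1 (y axis) against Scd2 (x axis) in CPM, both on log scales, 1 point per mouse coloured by group, with diamonds for the 4 libraries low in mt-Rnr2 and a square for Young CTRL 1. Young BAM15 and Young CTRL cover much the same range of Scd1 and separate along Scd2, while Aged BAM15 splits into 3 mice of low and 2 of high Scd1.

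Elovl6 (ENSMUSG00000041220), the elongase that makes the substrate of the stearoyl-CoA desaturases, measured 11.9, 23.5, 5.83, 5.63 and 8.93 CPM in the 5 Aged BAM15 mice. It ran from 6.87 to 17.3 CPM in Aged CTRL, with a median of 9.85 CPM, and from 16.9 to 23.2 CPM in Young BAM15, with a median of 18.0 CPM. In Young CTRL it ran from 14.7 to 31.8 CPM, with a median of 23.8 CPM. In each group of old mice all but 1 mouse lay below every young mouse of either group, the exceptions being Aged BAM15 2 and Aged CTRL 4. The means were 11.2 ± 7.35 CPM in Aged BAM15 (SD, n = 5), 10.8 ± 3.56 CPM in Aged CTRL (SD, n = 6), 18.7 ± 2.26 CPM in Young BAM15 (SD, n = 6), and 23.5 ± 5.71 CPM (SD, n = 7) in Young CTRL. Both groups of old mice differed by less than the spread between mice. Both groups of young mice differed by less than the SD of Young CTRL but by more than that of Young BAM15. In Young BAM15, 6 of 6 mice lay below the Young CTRL mean.

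With age in untreated mice the log2 difference of Elovl6 was -1.12 ± 0.29 (SE, edgeR adjusted p = 0.117), and 6 of 6 Aged CTRL mice were below the Young CTRL mean. DESeq2 gave an adjusted p of 0.0151 and limma-voom 0.0072 for the same comparison. Without the 4 libraries low in mt-Rnr2 it was -1.06 ± 0.24 (SE, adjusted p = 0.0449). Leaving out Aged BAM15 2 alone, which takes no part in this comparison but in its estimate of the spread, gave an adjusted p of 0.0354.

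In Aged BAM15 against Young CTRL, Elovl6 differed by -1.07 ± 0.30 on the log2 scale (SE, adjusted p = 0.0732), with 5 of 5 mice below the Young CTRL mean. It passed without the 4 libraries low in mt-Rnr2, at -1.5 ± 0.29 (SE, adjusted p = 0.0189), and without Aged BAM15 2 alone, at -1.54 ± 0.27 (SE, adjusted p = 0.00743). It also passed without Aged CTRL 2 alone (adjusted p = 0.0471). Against Young BAM15 the difference was -0.75 ± 0.31 (SE, adjusted p = 0.247), and -1.24 ± 0.29 (SE, adjusted p = 0.109) without the 4. For the effect of BAM15 itself, the log2 difference was 0.05 ± 0.31 (SE, adjusted p = 0.983) in old mice and -0.33 ± 0.28 (SE, adjusted p = 0.649) in young mice. In old mice the sign depended on the libraries, since without the 4 low in mt-Rnr2 the value was -0.44 ± 0.29 (SE, adjusted p = 0.589).

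Elovl5 (ENSMUSG00000032349), the elongase of polyunsaturated acids, measured 80.3, 99.97, 78.7, 61.4 and 128 CPM in the 5 Aged BAM15 mice. It ran from 74.1 to 93.6 CPM in Aged CTRL (median 83.0 CPM), from 44.1 to 98.6 CPM in Young BAM15 (median 68.1 CPM) and from 73.5 to 225 CPM in Young CTRL (median 84.9 CPM). All groups overlapped. The highest value, 225 CPM, was that of Young CTRL 4, a library low in mt-Rnr2, and the other 6 Young CTRL mice had at most 89.0 CPM. The 4 libraries low in mt-Rnr2 held 89.8 to 225 CPM of Elovl5, against 44.1 to 98.6 CPM in the other 20.

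Elovl5 passed no comparison. The log2 difference was -0.52 ± 0.25 (SE, edgeR adjusted p = 0.375) in Young BAM15 against Young CTRL, and -0.21 ± 0.16 (SE, adjusted p = 0.468) without the 4 libraries low in mt-Rnr2. In the other comparisons its size was 0.32 or less, and the interaction was 0.63 ± 0.36 (SE, adjusted p = 0.899), or 0.06 ± 0.26 (SE) without the 4. Its means were 89.8 ± 25.6 CPM in Aged BAM15 (SD, n = 5), 83.3 ± 7.52 CPM in Aged CTRL (SD, n = 6), 71.7 ± 20.1 CPM in Young BAM15 (SD, n = 6), against 103 ± 54.2 CPM in Young CTRL (SD, n = 7). By mean the order was Young CTRL, Aged BAM15, Aged CTRL and Young BAM15. Each pair of neighbours in this order differed by less than the larger of its SDs.

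Fads1 (ENSMUSG00000010663), the delta-5 desaturase on the path to arachidonic acid, measured 43.0, 112, 47.9, 52.1 and 62.2 CPM in the 5 Aged BAM15 mice. It ran from 27.3 to 49.8 CPM in Aged CTRL (median 34.2 CPM) and from 23.6 to 38.6 CPM in Young BAM15 (median 33.0 CPM). In Young CTRL it ran from 18.9 to 327 CPM, with a median of 25.2 CPM. The top value was that of Young CTRL 1, and the other 6 Young CTRL mice had at most 51.0 CPM. All 5 Aged BAM15 mice were above every Young BAM15 mouse.

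The place of Fads1 among the groups therefore depended on Young CTRL 1. With all libraries the means were 63.5 ± 28.2 CPM in Aged BAM15 (SD, n = 5), 36.6 ± 9.25 CPM in Aged CTRL (SD, n = 6), 31.4 ± 5.96 CPM in Young BAM15 (SD, n = 6), against 72.7 ± 113 CPM in Young CTRL (SD, n = 7). Without Young CTRL 1 the Young CTRL mean was 30.4 ± 12.6 CPM (SD, n = 6), the lowest of the 4. Aged BAM15 against Young CTRL gave a log2 difference of -0.20 ± 0.54 (SE, edgeR adjusted p = 0.901) with that library and 1.06 ± 0.28 (SE, adjusted p = 0.0633) without it. DESeq2, to which all libraries were given, gave 1.03 ± 0.28 (SE, adjusted p = 0.00989), near the edgeR value without Young CTRL 1. Whether the DESeq2 fit set the outlying count of Young CTRL 1 aside was not tested. Its value is therefore not separate support beside the fit without that library. Aged CTRL against Young CTRL turned from -0.99 ± 0.52 (SE, adjusted p = 0.639) to 0.27 ± 0.26 (SE, adjusted p = 0.968) when it was left out, and Young BAM15 against Young CTRL from -1.21 ± 0.52 (SE, adjusted p = 0.336) to 0.05 ± 0.26 (SE, adjusted p = 0.965).

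The comparisons of Fads1 that do not use Young CTRL kept their direction. Aged BAM15 against Young BAM15 gave 1.01 ± 0.55 (SE, adjusted p = 0.352) with all libraries, and 1.01 ± 0.28 (SE, adjusted p = 0.106) without Young CTRL 1, which enters only through the shared spread. Aged BAM15 against Aged CTRL gave 0.79 ± 0.55 (SE, adjusted p = 0.704), with 5 of 5 mice above the Aged CTRL mean. Without the 4 libraries low in mt-Rnr2 these differences were 0.62 ± 0.71 and 0.49 ± 0.74 on the log2 scale (SE). The interaction was 2.01 ± 0.76 (SE, adjusted p = 0.899) in edgeR with all libraries and 0.75 ± 0.38 (SE, adjusted p = 0.864) without Young CTRL 1.

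Fads2 (ENSMUSG00000024665), the delta-6 desaturase that starts the path on which Fads1 acts, was close to the limit of detection in all libraries but that same one. It had 5, 0, 0, 0 and 0 counts in the Aged BAM15 mice, 0 to 10 counts in Aged CTRL, 0 to 4 counts in Young BAM15, and 0 to 3 counts in Young CTRL apart from Young CTRL 1, which had 659 counts or 49.5 CPM. A count of 0 allows up to 3 counts in a library of that depth, for counting error alone. Without the filter on low counts, edgeR called Fads2 in 0 comparisons (adjusted p from 0.11 to 0.91), and its fold changes against Young CTRL rest on Young CTRL 1, so none is given.

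Other genes set Young CTRL 1 apart in the same way. Awat2, a wax synthase of the sebaceous gland, had 11833 counts in Young CTRL 1 and at most 13 counts in any of the other 23 libraries. Krt79, a keratin of sebaceous ducts, had 899 CPM against at most 24.0 CPM, and Soat1, which esterifies cholesterol, had 1010 CPM against at most 41.8 CPM. Elovl4, the elongase of very long chains, had 52.8 CPM against at most 8.93 CPM. The summed level of the 4 measured of 5 sebaceous markers was 1799 CPM in Young CTRL 1, and its 5 keratinocyte markers summed to 1084 CPM. Among the genes followed here, Fads1 and Fads2 had their highest value of all 24 libraries in Young CTRL 1, while Scd1 stood 8th, Scd2 6th, Elovl5 13th and Elovl6 15th. The part of this tissue in the group differences of Fads1 was not tested beyond the values without that library.

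**Figure D4:**
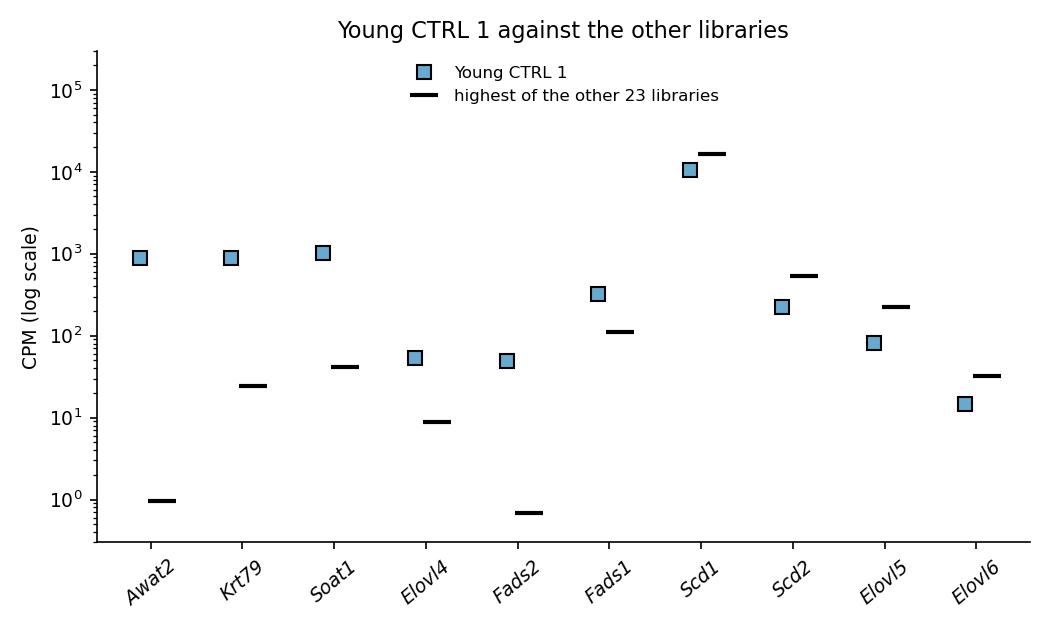
CPM on a log scale in Young CTRL 1 (squares) and in the highest of the other 23 libraries (short lines) for 3 skin genes, Elovl4 and the 6 desaturases and elongases. Young CTRL 1 is above all others for the genes from Awat2 to Fads1 and below the highest library for Scd1, Scd2, Elovl5 and Elovl6.

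Correlations between the 6 genes over the 24 mice were computed for all 15 pairs on log2 CPM with a permutation test. Scd2 and Elovl6 had the highest, with a Pearson r of 0.742 (p = 4e-05, adjusted over 15 pairs 0.0006) and a Spearman rho of 0.667 (p = 0.00068, adjusted 0.0102). The r was 0.666 without the 2 libraries farthest from the median of Scd2, and 0.777 without the 4 libraries low in mt-Rnr2. After the group means were removed r was 0.599 (permutation p = 0.00995, adjusted 0.149), which did not pass, while rho was 0.621 (permutation adjusted p = 0.0499). The values within groups were, when the 4 libraries were left out, an r of 0.658 (permutation adjusted p = 0.341) and a rho of 0.558 (permutation adjusted p = 0.471), and neither passed. Scd1 and Elovl6 had r of 0.554 (adjusted p = 0.0408) and rho of 0.483 (adjusted p = 0.135), and an r of 0.509 without the 2 farthest libraries. Within groups r was 0.357 (permutation p = 0.261), and it was -0.0558 (permutation p = 0.812) without the 4 libraries low in mt-Rnr2.

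The remaining 13 pairs did not pass with the groups pooled. Within groups Scd1 and Fads1 had a rho of 0.550 (permutation adjusted p = 0.0499), beside an r of 0.355 (permutation adjusted p = 0.267) that did not pass. That rho was 0.444 (permutation adjusted p = 0.471) without the 4 libraries low in mt-Rnr2. Scd1 and Scd2 had r of 0.214 (permutation p = 0.314, adjusted 0.589) and rho of 0.227 (permutation p = 0.285). Fads1 and Fads2 had r of 0.556 (permutation p = 0.0403, adjusted 0.201) with a rho of -0.23, and r was -0.454 without the 2 farthest libraries. Points in these correlations share library depth and tissue make-up.

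For each of the 5 tested genes, the genes whose log2 CPM, after removal of the group means, followed it most closely over the 24 libraries were sought among 10447 genes whose mean reached 5 CPM. For Scd2 they were Cyb5b with an r of 0.848, Paqr9 with 0.824, Fasn with 0.813, Kcnj14 with 0.807 and Saa3 with 0.790. Cyb5b is the cytochrome b5 of the outer mitochondrial membrane and Fasn is the fatty acid synthase. These 5 lay between 0.803 and 0.906 in the 18 libraries that were neither low in mt-Rnr2 nor carried Krt14. Since they were picked as the highest over libraries that include these 18, this is no separate test. For Scd1 they were Marchf8 (r of 0.889), Trappc6b, Gabarapl1, Pygl and Tmem159 (r of 0.843), and for Elovl6 they were Cuta (r of 0.825), Ola1, Ppp2r5a, Col15a1 and Maged2 (r of 0.757). For Elovl5 they were Cmtm4 (r of 0.873), Cdc42ep4, Tpm4 and Psme3 (r of 0.833). In the 18 libraries the r of the genes named was lower, at 0.633 to 0.803 for Scd1, 0.634 to 0.731 for Elovl6 and 0.476 to 0.648 for Elovl5. For Fads1 they were Aldh3a2 (r of 0.909), Sgpp1, Sdr42e1, Vmp1 and Lhpp (r of 0.875), and these values were 0.127 to 0.349 in the 18 libraries.

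The genes that feed, support and follow these enzymes were described by list, beside the median log2 fold change of all genes, which was -0.04 in Aged CTRL against Young CTRL, 0.02 in Aged BAM15 against Aged CTRL, 0.03 in Young BAM15 against Young CTRL, -0.10 in Aged BAM15 against Young BAM15 and -0.01 in Aged BAM15 against Young CTRL. The lists held 6, 6, 6, 7, 14 and 11 tested genes. Of these genes, 9 were called in Aged BAM15 against Young CTRL, where 205 of all 15939 genes (1.29%) were called. Of the 9, 4 belong to the 7 genes that make palmitate, the substrate of Elovl6. These 4 fell, and the list median was -1.19. Acss2, which makes acetyl-CoA from acetate, fell by 2.05 ± 0.32 (SE, edgeR adjusted p = 0.00201). The citrate carrier Slc25a1 fell by 1.99 ± 0.35 (SE, adjusted p = 0.00549), Fasn fell by 1.90 ± 0.37 (SE, adjusted p = 0.0116), and the citrate lyase Acly fell by 1.19 ± 0.28 (SE, adjusted p = 0.0355). Acly was at 293 CPM in Young CTRL 1, against 79.1 to 104.9 CPM in the other Young CTRL mice. Without Young CTRL 1 its difference was -0.81 ± 0.19 (SE, adjusted p = 0.0423), and without the 4 libraries low in mt-Rnr2 it was -1.10 ± 0.34 (SE, adjusted p = 0.136), which did not pass. Acss2, Slc25a1 and Fasn passed in both cases. Of the 9 list genes, 7 were called without Young CTRL 1, beside 148 of all genes, and 6 without the 4 libraries, beside 105 of all genes.

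Fasn was the member of that list called with age in untreated mice, 1 of 7, where 0.207% of all genes were called. Its mean was 273 CPM in Aged CTRL (SD 108, 6 mice), against 936 CPM in Young CTRL (SD 216, 7 mice), and it fell by 1.78 ± 0.34 on the log2 scale (SE, adjusted p = 0.0203). Without the libraries low in mt-Rnr2 and those with Krt14, the Fasn difference was -1.76 ± 0.38 (SE, adjusted p = 0.0613), which did not pass. The list median was -0.83 in that comparison. In Young BAM15 against Young CTRL the median was -0.72 with 0 of 7 called, and the smallest p values were those of the malic enzyme Me1 at -1.32 ± 0.37 (SE, adjusted p = 0.192) and Acss2 at -0.83 ± 0.29 (SE, adjusted p = 0.271). In Aged BAM15 against Aged CTRL it was -0.36 with 0 of 7 called, and Slc25a1 differed by -1.27 ± 0.35 (SE, adjusted p = 0.257). Between the treated groups it was -0.49, again with 0 called, and Acss2 differed by -1.23 ± 0.32 (SE, adjusted p = 0.109).

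Of the 6 genes listed as supplying electrons to desaturases, Cyb5b, the form of the outer mitochondrial membrane, was called in Aged BAM15 against Young CTRL. It averaged 237 ± 117 CPM in Aged BAM15 (SD, n = 5), against 657.5 ± 292 CPM in Young CTRL (SD, n = 7), and fell by 1.47 ± 0.37 (SE, adjusted p = 0.0483). It did not pass without Young CTRL 1 (adjusted p = 0.0531) or without the 4 libraries low in mt-Rnr2 (adjusted p = 0.111). Cyb5a, the other cytochrome b5 of the list, differed by -0.28 ± 0.30 in Aged BAM15 against Young CTRL (SE, adjusted p = 0.697). The list median was -0.45. In Young BAM15 against Young CTRL, Cyb5b differed by -1.35 ± 0.35 (SE, adjusted p = 0.179), and in Aged BAM15 against Aged CTRL the reductase Cyb5r3 differed by -1.20 ± 0.40 (SE, adjusted p = 0.364). Of the 6 partners that complete each cycle of elongation, Tecr, the last reductase of the cycle, fell in Aged BAM15 against Young CTRL by 0.92 ± 0.23 (SE, adjusted p = 0.0429), with a list median of -0.15. Its adjusted p was 0.0757 both without Young CTRL 1 and without the 4 libraries low in mt-Rnr2. In Young BAM15 against Young CTRL that list had a median of -0.76 and 0 called, and Hacd2 (-1.499 ± 0.44, SE, adjusted p = 0.197) and Hsd17b12 (-1.499 ± 0.56, SE, adjusted p = 0.278) had the smallest p. Hsd17b12 was at 828 CPM in Young CTRL 1, and Hacd2 reached 565.5 CPM in Young CTRL, against a median of 107 CPM there.

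Of 14 regulators of lipid synthesis, 1 rose and 1 fell in Aged BAM15 against Young CTRL, with a list median of -0.23. Mlxipl, which encodes ChREBP, averaged 120 ± 41.8 CPM in Aged BAM15 (SD, n = 5), against 38.1 ± 12.8 CPM in Young CTRL (SD, n = 7), and rose by 1.66 ± 0.33 (SE, adjusted p = 0.0127). Insig1, which holds SREBP precursors in the endoplasmic reticulum and is itself a target of SREBP, fell by 1.54 ± 0.37 (SE, adjusted p = 0.0362). Srebf1 itself was not called in any comparison. In Aged BAM15 against Aged CTRL, Thrsp, a lipogenic nuclear protein, differed by 1.504 ± 0.37 (SE, adjusted p = 0.226) and Mlxipl by 1.21 ± 0.34 (SE, adjusted p = 0.257).

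Of 11 genes that use or break down the products, Lpcat3, which places polyunsaturated acids into phospholipids, fell in Aged BAM15 against Young CTRL by 1.09 ± 0.21 (SE, adjusted p = 0.0119). It averaged 33.7 ± 4.00 CPM in Aged BAM15 (SD, n = 5), against 71.5 ± 9.66 CPM in Young CTRL (SD, n = 7). The list median was -0.60 there, and -0.78 in Young BAM15 against Young CTRL with 0 of 11 called. Of the 11 other desaturases and elongases, 9 were in the table and 6 passed the filter, and 0 were called in any comparison. Degs1, the ceramide desaturase, came nearest in Aged BAM15 against Young CTRL, with a log2 difference of -0.91 ± 0.27 (SE, adjusted p = 0.0878), and in Young BAM15 against Young CTRL it differed by -0.89 ± 0.26 (SE, adjusted p = 0.197). Fold changes of Soat1, Elovl3 and Elovl7 against Young CTRL rest on wide errors, between 0.83 and 1.10 in Aged CTRL or Aged BAM15. Soat1 was at 1010 CPM in Young CTRL 1, and Elovl7 reached 14.87 CPM in Young CTRL, against a median of 1.115 CPM there.

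Outside the calls given, 0 members of any list passed the edgeR threshold in any comparison, and the members with the smallest p in each list had the following values. In Aged CTRL against Young CTRL, among other desaturases and elongases, Elovl7 differed by -2.29 (adjusted p = 0.351) and Elovl3 by -2.16 (adjusted p = 0.58), with a list median of -0.59. Among elongation partners Tecr differed by -0.36 (adjusted p = 0.703) and Hacd2 by -0.61 (adjusted p = 0.806), with a median of -0.31. Among electron suppliers Cyb5b differed by -0.89 (adjusted p = 0.402) and Cyb5r2 by 1.31 (adjusted p = 0.662), with a median of -0.04. The regulators had a median of -0.25, and the lipogenic factors Thrsp and Mid1ip1 differed by -1.16 (adjusted p = 0.201) and -0.55 (adjusted p = 0.379). Thrsp passed without the 4 libraries low in mt-Rnr2, at -1.23 ± 0.26 (SE, adjusted p = 0.0325). The users of the products had a median of -0.22, and Soat1 and the acyl-CoA synthetase Acsl4 differed by -2.65 (adjusted p = 0.369) and -0.90 (adjusted p = 0.402).

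In old mice, Aged BAM15 against Aged CTRL, the remaining values were as follows. Degs1 differed by -0.68 (edgeR adjusted p = 0.458) and Fads3 by -0.28 (adjusted p = 0.825), with a median of -0.03 for the other desaturases and elongases. Tecr differed by -0.56 (adjusted p = 0.459) and Hacd3 by 0.43 (adjusted p = 0.828), with a median of 0.08 for the elongation partners. Cyb5r2 differed by -1.35 (adjusted p = 0.637), with a median of -0.42 for the electron suppliers, and Acss2 differed by -0.95 (adjusted p = 0.364). The regulators had a median of 0.19. Among the users Lpcat3 differed by -0.83 (adjusted p = 0.25) and the peroxisomal Hsd17b4 by -0.73 (adjusted p = 0.403), with a median of -0.45.

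In young mice, Young BAM15 against Young CTRL, the median of each of the 6 lists was negative. Fads3 differed by -0.71 (edgeR adjusted p = 0.287), with a median of -0.80 for the other desaturases and elongases, and Cyb5r3 by -0.68 (adjusted p = 0.422), with a median of -0.49 for the electron suppliers. Insig2 and Insig1, which both retain SREBP, differed by -0.73 (adjusted p = 0.201) and -0.90 (adjusted p = 0.278), with a median of -0.18 for the regulators. The synthetases Acsl1 and Acsl4 differed by -0.88 (adjusted p = 0.21) and -1.14 (adjusted p = 0.21). Acsl4 reached 223.4 CPM in Young CTRL, against a median of 49.2 CPM there. List genes were not fitted without sets of libraries in this comparison.

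Between the treated groups, Aged BAM15 against Young BAM15, list medians lay on both sides of 0. Fads3 differed by 0.57 (edgeR adjusted p = 0.326) and Elovl1 by -0.22 (adjusted p = 0.64), with a median of 0.13. The dehydratases Hacd3 and Hacd1 differed by 1.183 (adjusted p = 0.228) and 0.95 (adjusted p = 0.294), with a median of 0.73. Cyb5r4 differed by -0.48 (adjusted p = 0.335) and Cyb5r3 by -0.44 (adjusted p = 0.564), with a median of -0.05. Fasn differed by -1.177 (adjusted p = 0.155). Mlxipl differed by 1.32 (adjusted p = 0.0998) and Insig2 by 0.79 (adjusted p = 0.145), with a median of 0.12. Lpcat3 differed by -0.64 (adjusted p = 0.171), with a median of -0.03 for the users of the products. Elovl7 differed by -2.30 (adjusted p = 0.187) in Aged BAM15 against Young CTRL, with a median of -0.68 for the other desaturases and elongases.

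The interaction had an edgeR adjusted p of 0.899 or more for every gene of the lists. Its smallest p values belonged, list by list, to Elovl3 and Fads6, Hacd1 and Hsd17b12, Cyb5b and Cyb5r3, Acaca and Me1, Thrsp and Insig2, and Acsl4. Of these Thrsp had 1.43 and Acsl4 1.44 on the log2 scale.

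**Figure D5:**
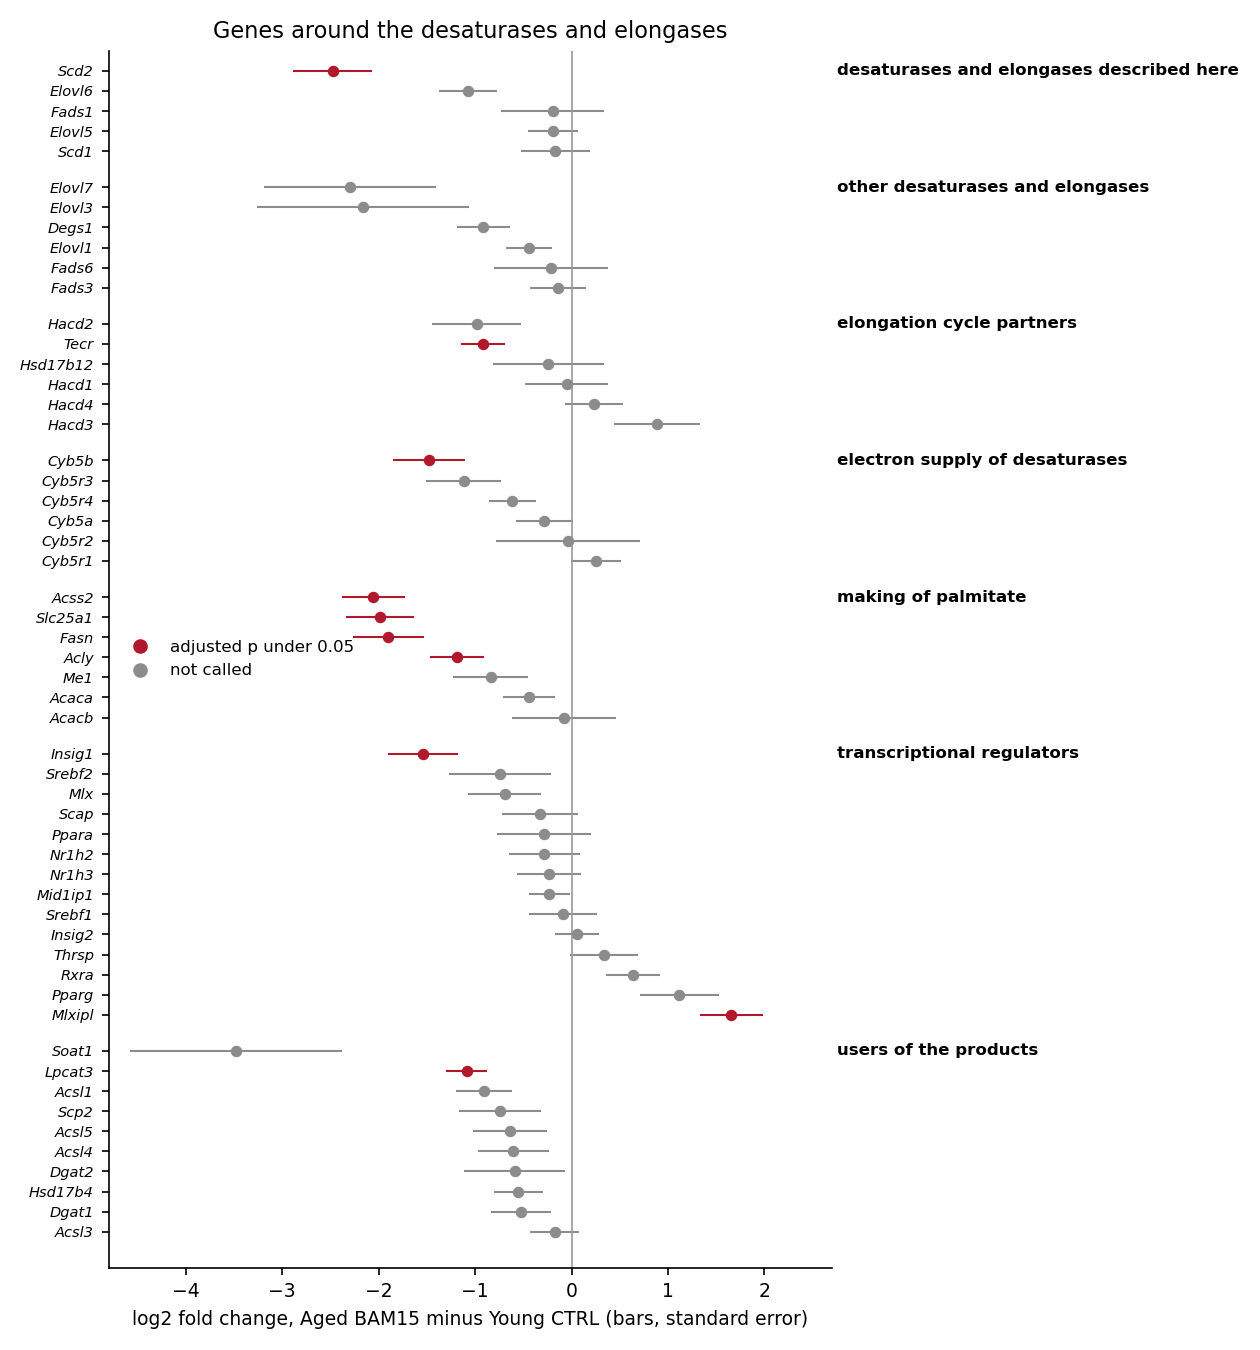
Log2 fold change in Aged BAM15 against Young CTRL (x axis, bars are the standard error) of the 5 tested desaturases and elongases and of genes of the 6 lists, in which red marks an edgeR adjusted p under 0.05. Scd2, Fasn, Acss2, Slc25a1, Acly, Insig1, Cyb5b, Tecr and Lpcat3 lie to the left and Mlxipl to the right.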

How the data were processed

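Per the labels' protocols, inguinal fat gave 24 QuantSeq libraries, a kit known to read transcript 3′ ends, taken here as 1 per mouse. The authors deposited raw counts per Ensembl gene and a signal table, which are those counts divided by 1 size factor per library (largest deviation 6.52e-09). The submitters' processing notes name R 3.4.3, DESeq2 1.18.1 and GRCm38, and no source used here names the aligner or the counter. The table held 17541 genes, each with at least 72 counts in all. The table itself gave 14606 gene symbols, and GENCODE M21, also used for positions, gave 2888 more.

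All results rest on the raw counts. Library sizes were corrected by edgeR's TMM factors, and filterByExpr removed 1602 genes. A quasi-likelihood test in edgeR 4.0.16 (R 4.3.3, robust, group as the only term, 20 residual degrees of freedom) was fitted to all 24 libraries, and p was adjusted over the 15939 genes kept. Log2 CPM used a prior count of 2. SE is the log2 change over the square root of F. In simulated data, recovery was read from the comparison of Aged CTRL with Young CTRL over 15939 genes. The test recovered 18% of 100 genes changed by 1 on the log2 scale and 82% of 100 genes changed by 2. In that comparison 3 unchanged genes were called. Recovery was not split by expression level, so it sets no detection limit for weakly expressed genes.

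Alternatives were other size factors and filters, DESeq2 1.42.0, limma-voom (limma 3.58.1) with sample quality weights, the compared groups fitted by themselves, a block for replicate number, marker levels as covariates, each library left out in turn, and sets of libraries left out. Leaving out the libraries low in mt-Rnr2 together with those that carry Krt14 was chosen after seeing the data, as were the fits of the list genes without sets of libraries. Nothing in the labels pairs mice that share a replicate number, and each sample has an ID of its own in the labels, which do not say more on whether samples are separate animals, so p-values measure the spread between these samples. Libraries of the same group differed by more than sampling noise (chi-square per gene from 21.1 to 705 in 61 pairs).

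The genes, gene lists and marker lists were chosen with earlier results of these data known. The rule for naming other genes took, of each list and comparison, the called members (up to 4) or the 2 with the smallest p, and for each of the 6 genes the 5 closest genes, without predicted genes. Fads2, at 0 or near it in 23 of 24 libraries, was left out of this search. A few genes that the rule gives are not reported here. Awat2, Krt79, Soat1 and Elovl4 in Young CTRL 1 were named after their values were seen.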

Additional observations from a re-analysis of the deposited data

Results flagged for a closer look

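In 24 sets of 1 gene in 1 group, 5 held a mouse whose log2 CPM lay farther from its group than a Dixon test at the 95% level allows, and chance flags about 1 in 20 such sets. Fads1 in Young CTRL 1 was at 8.352 on the log2 scale, or 327 CPM, against 18.9 to 51.0 CPM in the other 6 Young CTRL mice. Fads2 in Young CTRL 1 was at 5.633, or 659 counts, against at most 3 counts in the others. Elovl5 in Young CTRL 4, a library low in mt-Rnr2, was at 7.815, or 225 CPM, against 73.5 to 89.0 CPM. Elovl6 in Young BAM15 3, a library rich in muscle transcripts, was at 4.544, or 23.2 CPM, against 16.9 to 18.8 CPM. Fads2 in Aged BAM15 1 was at -1.114, which stands for 5 counts against 0 in the other 4 mice of that group.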

How the results depend on the processing

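Of the alternatives that used all or a set of libraries, 396 single-gene and pair values kept their direction and side of the threshold, 18 newly passed, 1 (Scd2, given above) no longer passed and 30 changed sign. Scd2 kept its sign outside the interaction. DESeq2 called 2 of the 5 genes in Aged CTRL against Young CTRL, 1 in Young BAM15 against Young CTRL, 1 in Aged BAM15 against Young BAM15 and 3 in Aged BAM15 against Young CTRL. limma-voom called 2 in Aged CTRL against Young CTRL, 1 in Young BAM15 against Young CTRL, 3 in Aged BAM15 against Young BAM15, 3 in Aged BAM15 against Young CTRL and 1 in Aged BAM15 against Aged CTRL. Without the 4 libraries low in mt-Rnr2 the counts were 2 in Aged CTRL against Young CTRL and 2 in Aged BAM15 against Young CTRL. With 1 library left out they ran from 0 to 1 and from 1 to 2 in those comparisons. The counts over all genes in Aged CTRL against Young CTRL were 269 in DESeq2, 147 in limma-voom and 79 without the 4 libraries, against 33 as reported. They were 826 in DESeq2, 1633 in limma-voom and 105 without the 4 libraries in Aged BAM15 against Young CTRL, against 205 as reported. The cause was not tested.

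Fads1 in Aged CTRL against Young CTRL was 0.23 in DESeq2, 0.18 in limma-voom, 0.21 without the 2 libraries with Krt14, 0.33 without these and the 4 low in mt-Rnr2, and -1.16 to 0.27 with 1 library left out. In Young BAM15 against Young CTRL it was 0.056 in limma-voom, 0.21 without both sets, and -1.38 to 0.047 with 1 left out. In Aged BAM15 against Young CTRL it was 1.03 in DESeq2, 0.70 in limma-voom, 1.00 without Krt14 libraries, 0.82 without both sets, 0.15 with the adipocyte covariate, and -0.50 to 1.06 with 1 left out. Each of these turned without Young CTRL 1.

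Elovl5 in Aged BAM15 against Aged CTRL was -0.14 in limma-voom, -0.16 without the 4 libraries, -0.16 without both sets, and -0.057 to 0.22 with 1 left out. It was -0.36 to 0.12 against Young CTRL in Aged BAM15 and -0.37 to 0.016 in Aged CTRL. Elovl6 in Aged BAM15 against Aged CTRL was -0.68 in limma-voom, -0.44 without the 4, -0.44 without both sets, -0.053 without the 3 libraries rich in the muscle gene Acta1, and -0.42 to 0.23 with 1 left out. Its interaction was -0.37 in limma-voom, -0.18 without the 4, -0.083 without both sets, and -0.064 to 0.56 with 1 left out. The Scd2 interaction was -0.051 in limma-voom and -0.025 to 0.47 with 1 left out. Scd1 in Young BAM15 against Young CTRL was 0.094 in limma-voom, 0.097 with the B cell covariate, 0.17 with the adipocyte covariate, and -0.19 to 0.12 with 1 left out. In Aged BAM15 it was -0.40 to 0.065 against Young BAM15 and -0.47 to 0.023 against Young CTRL with 1 left out. The r of Scd1 and Fads2 was -0.00338 with a prior count of 0.5, and without the 4 libraries that of Fads2 and Elovl5 was 0.15 and that of Elovl5 and Elovl6 was -0.0769.

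With the replicate number as a block, Scd2 in Aged BAM15 against Young CTRL was the 1 call (-2.62, edgeR adjusted p = 0.0283), with 0 in each other comparison. Fads1 was 0.16 there, and Elovl6 in Aged BAM15 against Aged CTRL was -0.0041. Same-numbered libraries of different groups did not deviate together (median r -0.04 in 33 pairs, against 0.00433 in 182 other pairs), and 3 of 24 libraries matched best with their own number, so the block pairs nothing. In the simulated comparison of Aged CTRL with Young CTRL, 18% of genes changed by 1 on the log2 scale were recovered, so most were missed there. Fads2 was close to the limit of detection.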

Other observations

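The marker lists of other tissues not given above were summed in CPM over each library. Skeletal muscle (6 of 6 markers measured) ran from 167 to 7934 in Aged BAM15, 23.1 to 19090 in Aged CTRL, 26.7 to 54900 in Young BAM15 and 24.0 to 49970 in Young CTRL. Brown fat (5 of 5) ran from 18.8 to 300.4 in Aged BAM15, 32.8 to 159 in Aged CTRL, 56.2 to 577 in Young BAM15 and 56.3 to 426 in Young CTRL. Macrophage markers (5 of 5) had medians of 606 in Aged BAM15, 1047 in Aged CTRL, 802 in Young BAM15 and 551 in Young CTRL. Fat progenitor markers (4 of 4) had medians of 374 in Aged BAM15, 326 in Aged CTRL, 252 in Young BAM15 and 238 in Young CTRL. Mammary epithelium markers (4 of 7 measured) reached 144 in Young CTRL 1 and at most 5.97 in any library of the other 3 groups. B cell markers summed to 1.33 to 213 in Aged BAM15 and 4.21 to 195 in Aged CTRL.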
